A study of Homo sapiens with 12 samples.

Results

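Nuclear genes of oxidative phosphorylation were collected by name from the 26485 gene symbols listed in the count data. Symbols that start with NDUFA, NDUFB, NDUFC, NDUFS, NDUFV, UQCR, COX4, COX5, COX6, COX7, COX8 or ATP5 were kept, and symbols with a hyphen or with a final P and digits, the usual names of read-through genes and pseudogenes, were left out. Of 98 symbols with such a start, 8 were left out and 90 remained. The rule itself used names and no measured value, but it was chosen with earlier results of these data known. By role they comprised 7 core subunits, 30 accessory subunits and 8 assembly factors of complex I, 9 subunits of complex III, 11 of complex IV, 8 alternative isoforms and relatives of complex IV subunits, 5 subunits of the F1 part of ATP synthase and 12 genes of its Fo part, its stalk and related proteins. The name rule therefore also takes in proteins that are not subunits, such as the NDUFAF assembly factors and ATP5SL. The filter on low counts left 85 of the 90 genes for testing. The other 5 were isoforms or copies at or near 0: COX6A2 and COX7B2 had no read in any of the 12 libraries, COX4I2 and COX8C reached at most 0.0814 CPM (reads of a gene scaled to a common library size), and ATP5L2 at most 0.623 CPM.

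Oxidative phosphorylation takes place in the inner mitochondrial membrane. Complexes I, III and IV pass electrons from NADH to oxygen and pump protons, and ATP synthase lets the protons flow back through its Fo part while its F1 part makes ATP. The catalytic cores of complexes I, III and IV hold subunits encoded in mitochondrial DNA, while most other subunits are encoded in the nucleus and imported, so that transcription of both genomes has to be matched. The nuclear respiratory factor NRF1, the ETS-family factor GABP, the coactivators of the PGC-1 family and the receptor ESRRA are known regulators of these nuclear genes. None of the mitochondrially encoded mRNAs was among the listed symbols, so only the nuclear side was measured.

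Total RNA was taken from 2 human lung lines, A549, a lung adenocarcinoma line, and BEAS-2B (B2B), an immortalized line of bronchial epithelium, both labelled wild type. Each line was either left without drug (A549_NT and B2B_NT) or kept for 72 h with SR11302, a retinoid-related inhibitor of the transcription factor AP-1, at 10 µM (A549_SR11302 and B2B_SR11302), or with SP600125, which inhibits Jun N-terminal kinases, at 50 µM (A549_SP600125 and B2B_SP600125). Every group had 2 libraries of polyadenylated RNA, and each line is 1 line, so a line difference is a difference between these 2 cultures and not between tumour and normal cells in general. The drugs were dissolved in DMSO, the labels describe the controls as not treated, and the study's legends name DMSO, so it is unclear whether control cells received the solvent. Whether the 2 libraries of a group came from separate cultures is not stated, and p-values therefore measure only the spread between these libraries, which may be technical.

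Between 13969766 and 24917854 reads per library were counted in genes. Reads outside annotated genes made up 23.8 to 25.9% of the tallied reads in the 4 untreated libraries and 14.6 to 20.1% in the 8 treated ones. Which sequencer ran which library is not given, so treatment and any difference in library making cannot be told apart in the comparisons of an inhibitor with no treatment. The summed level of 6 genes abundant in A549, among them ALDH1A1 and AKR1B10, was 14688 to 21652 CPM in the 6 A549 libraries and 3.04 to 7.17 CPM in 5 of the 6 B2B libraries, but 88.0 CPM in B2B_NT replicate 2. Of 9 alveolar genes, between 6 and 8 were under 1 CPM in every library, A549 included. In bulk RNA, fewer cells of a type and less RNA per cell cannot be told apart.

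Values are CPM scaled by TMM, given for replicates 1 and 2 in that order. A difference is printed on the log2 scale with its SE, both from 1 edgeR model (quasi-likelihood test) over 16373 genes, and its p was adjusted by Benjamini-Hochberg. Genes count as called where that p was below 0.05 and the difference reached 0.5 on the log2 scale in either direction. Counts from fits with 1 library left out are given without the share of all tested genes. They are not read against a background. The mRNAs of these genes are short and many have processed copies elsewhere in the genome, so the share of 50-base windows of the canonical transcript that occur only once in the genome was computed: 51 of the 85 tested genes had at least 95% unique windows, against 13147 of the 15739 tested genes with a transcript. The median transcript length was 781 bases for the 90 genes and 3150 for all tested genes. As the strand setting of the counting is not stated, reads in overlapping exons may have been set aside as ambiguous or given to the other gene. This concerns ATP5I, whose exons lie to 61.3% within exons of MYL5, and ATP5S (41.8%, CDKL1), ATP5J (34.4%, GABPA), NDUFB2 (27.9%, BRAF) and ATP5E (23.2%, TUBB1).

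Promoter sequences were examined because several of these genes differed together between the lines. RefSeq promoter windows, from 250 bases before to 50 bases after the start of a transcript (assembly GRCh38.p14), were at hand for 71 of the 90 genes. The palindrome CGCATGCG, the core of NRF1 sites, was in 11 of the 71 (15.49%), against 2.965% of the promoters of tested genes. CCGGAAG, a site of ETS factors such as GABP, was in 19 (26.76%) against 15.1%, and in 5 of the 9 complex IV genes with a window. AAGATGG, a YY1 site, was in 17 (23.94%) against 6.506%, and GGGCGG, an SP1 site, in 43 (60.56%) against 63.39%. TGANTCA, the AP-1 site, was in 4 (5.634%), against 5.53% of the promoters of tested genes. Both strands were searched, these motifs may overlap one another, and a match is a string of letters and not a measured site. Each of the 71 genes was counted once if any of its windows held the motif. The background was counted over 17738 single windows, so the shares compared are in unlike units.

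Of these promoters, 6 are shown with 1 kind of motif in capitals, read on either strand. COX4I1, COX6B1, NDUFA1 and COX8A carry the ETS letters (CTTCCGG is CCGGAAG on the other strand), and NDUFA8 carries the NRF1 core. COX7C is added as 1 of the 4 genes with the AP-1 letters.
COX4I1, chr16:85799445-85799744, plus strand: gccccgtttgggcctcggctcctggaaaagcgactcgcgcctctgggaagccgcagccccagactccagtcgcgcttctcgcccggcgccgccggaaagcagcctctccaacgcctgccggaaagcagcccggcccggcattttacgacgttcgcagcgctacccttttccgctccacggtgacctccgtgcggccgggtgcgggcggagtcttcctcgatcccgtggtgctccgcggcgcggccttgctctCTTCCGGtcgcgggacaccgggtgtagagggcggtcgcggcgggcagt
COX6B1, chr19:35648073-35648372, plus strand: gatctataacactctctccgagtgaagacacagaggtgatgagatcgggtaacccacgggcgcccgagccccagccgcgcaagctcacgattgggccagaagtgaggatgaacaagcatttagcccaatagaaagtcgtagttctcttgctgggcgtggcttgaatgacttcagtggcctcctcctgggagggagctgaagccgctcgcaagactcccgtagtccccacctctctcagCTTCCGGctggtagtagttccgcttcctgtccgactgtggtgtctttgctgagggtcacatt
NDUFA1, chrX:119871582-119871881, plus strand: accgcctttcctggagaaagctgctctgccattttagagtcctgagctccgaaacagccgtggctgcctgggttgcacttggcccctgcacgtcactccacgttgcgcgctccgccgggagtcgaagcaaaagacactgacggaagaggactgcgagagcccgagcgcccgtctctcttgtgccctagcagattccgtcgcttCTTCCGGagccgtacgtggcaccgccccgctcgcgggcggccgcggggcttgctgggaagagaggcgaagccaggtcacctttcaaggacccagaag
COX8A, chr11:63974370-63974669, plus strand: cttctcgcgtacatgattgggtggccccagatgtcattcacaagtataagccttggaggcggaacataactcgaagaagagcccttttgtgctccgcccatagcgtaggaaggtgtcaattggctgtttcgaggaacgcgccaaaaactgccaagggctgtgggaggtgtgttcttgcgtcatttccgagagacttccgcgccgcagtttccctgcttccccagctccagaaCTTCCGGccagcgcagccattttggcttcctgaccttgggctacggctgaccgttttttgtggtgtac
NDUFA8, chr9:122159730-122160029, minus strand: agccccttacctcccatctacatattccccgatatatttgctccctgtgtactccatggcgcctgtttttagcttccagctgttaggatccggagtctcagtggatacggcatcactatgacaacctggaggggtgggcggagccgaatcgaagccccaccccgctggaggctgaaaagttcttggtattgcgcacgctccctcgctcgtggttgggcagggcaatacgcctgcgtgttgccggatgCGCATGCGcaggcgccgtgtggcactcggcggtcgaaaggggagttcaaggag
COX7C, chr5:86617691-86617990, plus strand: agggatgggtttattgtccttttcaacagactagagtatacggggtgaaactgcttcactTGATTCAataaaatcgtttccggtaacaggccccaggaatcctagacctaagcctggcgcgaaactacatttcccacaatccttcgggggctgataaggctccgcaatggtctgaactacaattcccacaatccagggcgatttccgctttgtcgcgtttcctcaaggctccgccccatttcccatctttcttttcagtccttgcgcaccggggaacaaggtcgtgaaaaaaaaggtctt

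To compare the 2 lines, levels without treatment were examined first. Of the nuclear oxidative phosphorylation mRNAs, 37 of 85 were called higher in A549 than in B2B (background 30.4% of all tested genes) and 1 lower (background 26.5%). The median difference over the 85 genes was 0.42, against 0.05 over all tested genes, and 64 of 85 were positive. Complex IV stood out by its counts, with 9 of 11 subunits called and all 11 positive (median 0.72), followed by the assembly factors of complex I (5 of 8 called, median 0.54). Of the complex I core subunits 2 of 7 were called (median 0.42), of the accessory subunits 12 of 30 (0.27), of complex III 2 of 9 (0.27), of F1 2 of 5 (0.19) and of the Fo and stalk genes 3 of 11 (0.33).

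Within complex IV, whose nuclear subunits surround the mitochondrially encoded catalytic core, COX4I1, the ubiquitous form of subunit 4, was at 298 and 247 CPM in A549_NT and 108 and 116 in B2B_NT, a difference of 1.29 ± 0.15 (adjusted p = 4.7e-06). COX6B1, which faces the intermembrane space and helps to join 2 monomers into a dimer, was at 223 and 186 CPM against 61.4 and 68.8 (1.65 ± 0.17, adjusted p = 1e-06). COX5A, on the matrix side, was at 171 and 139.8 CPM against 55 and 62.1 (1.41 ± 0.18, adjusted p = 9.2e-06). For each of these subunits both A549 libraries were more than 2-fold above both B2B libraries. COX7B differed by 1.41 ± 0.14 and NDUFA4, once counted with complex I, by 0.90 ± 0.13, while smaller differences were called for COX8A (0.72 ± 0.19), COX5B (0.64 ± 0.19), COX6C (0.57 ± 0.12) and COX7C (0.55 ± 0.12). COX7A2 (0.16 ± 0.13) and COX6A1 (0.45 ± 0.15) were not called.

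In complex III, UQCRFS1, the Rieske iron-sulfur protein (hg38 chr19:29205320-29213151, minus strand), showed the largest difference towards A549 among the 85 genes, with 219.7 and 190.1 CPM in A549_NT and 55.2 and 56.3 in B2B_NT (1.88 ± 0.13, 3.67-fold, adjusted p = 1.6e-08). Only 77.2% of the windows of UQCRFS1 are unique. UQCRC2, a core protein, was at 209 and 194 against 107 and 109 CPM (0.90 ± 0.10), whereas its partner UQCRC1 differed by 0.07 ± 0.14 and was not called. The other members of complex III lay between -0.12 and 0.48 and were not called.

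In complex I the difference was uneven as well. NDUFA1, a small membrane subunit encoded on the X chromosome, was at 109 and 97.4 CPM against 30.8 and 33.7 (1.68 ± 0.16, adjusted p = 4.4e-07), and NDUFB10 at 134 and 112 against 50.6 and 50.9 (1.27 ± 0.17, adjusted p = 1.4e-05). NDUFB1 (1.01 ± 0.16; 85.8% unique windows) and NDUFA3 (0.91 ± 0.24) were the next in size among the subunits. By contrast NDUFS1, the largest core subunit, was at 130.1 and 137 CPM against 124 and 120.1 (0.13 ± 0.09, adjusted p = 0.23), and NDUFS7, which holds the last iron-sulfur cluster before ubiquinone, differed by -0.06 ± 0.24. The 2 called core subunits were NDUFS8 (0.59 ± 0.20) and NDUFV1 (0.50 ± 0.15), and neither call was kept without A549_NT replicate 1 (0.37 and 0.43) or without B2B_NT replicate 1 (0.51 and 0.48). Of the assembly factors, ATP5SL, now named DMAC2 and needed for the distal membrane arm of complex I, was at 87.4 and 78.5 against 38.4 and 36.4 CPM (1.15 ± 0.16).

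ATP synthase split by subunit. ATP5G3 was at 245 and 215 CPM in A549_NT and 95.9 and 103 in B2B_NT (1.21 ± 0.14, adjusted p = 3.3e-06), and ATP5G1 at 112 and 96.2 against 49.4 and 52 (1.03 ± 0.19, adjusted p = 0.00027). Together with ATP5G2 (0.41 ± 0.17, not called) they encode the same mature c subunit of the membrane ring. Of the catalytic F1 head, ATP5B, the beta subunit, was called (0.71 ± 0.13) and ATP5A1, the alpha subunit, was not (0.19 ± 0.11). ATP5D, the delta subunit of the central stalk, lay at 55.6 and 44.1 against 57.8 and 64.2 CPM (-0.29 ± 0.21, not called). ATP5E, the epsilon subunit beside it, was counted at 1.35 to 3.84 CPM over the 12 libraries.

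**Figure D1:**
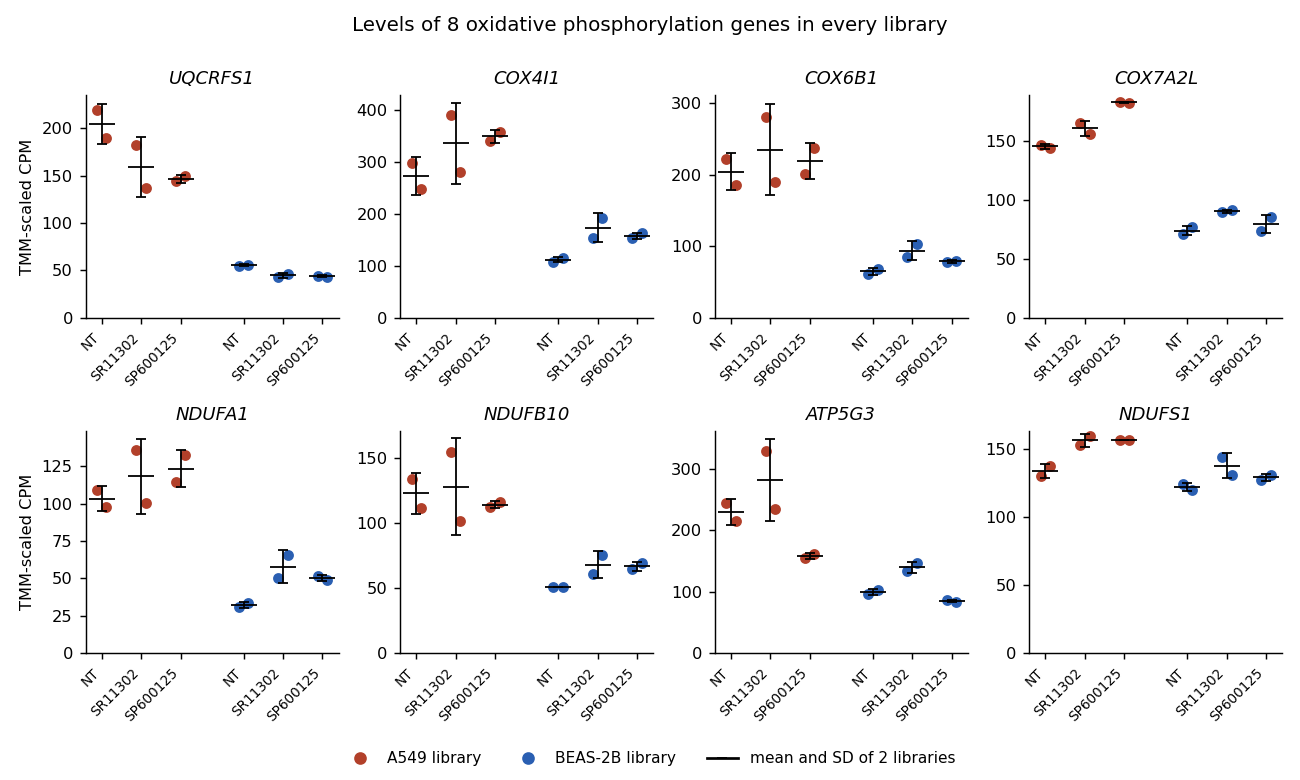
TMM-scaled CPM (linear axis from 0) of 8 genes in every library, by line and treatment. Points are single libraries, and the black bars are the mean and SD of the 2 libraries of a group. The A549 points of UQCRFS1, COX4I1, COX6B1, COX7A2L, NDUFA1, NDUFB10 and ATP5G3 lie above all B2B points of the same gene, while those of NDUFS1 overlap with B2B.

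The isoforms of complex IV differed in both directions. COX6B2, the testis form of subunit 6b (chr19:55349306-55354719, minus strand), was the only gene called lower in A549, at 0.723 and 0.531 CPM against 3.88 and 5.37 (-2.88 ± 0.47, adjusted p = 8.7e-05). COX7A1, the heart and muscle form of subunit 7a, was low in both lines, at 3.17 and 3.56 against 1.29 and 1.22 CPM (1.42 ± 0.28). COX7A2L, which takes part in joining complexes III and IV into supercomplexes, was at 147 and 144 against 71.2 and 76.6 CPM (0.97 ± 0.10). NDUFA4L2, a relative of NDUFA4 known from hypoxic cells, was under 1 CPM in both (-0.03 ± 0.45).

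Without B2B_NT replicate 2, the library with 88.0 CPM of A549 genes, 38 genes were called higher and 1 lower. Leaving out A549_NT replicate 1 gave 27 higher and 4 lower. With an offset that removes each library's trend on GC content and transcript length, 24 were higher (28.2% of the 85, against 30.1% of all tested genes) and 9 lower (10.6%, against 28%), among the latter ATP5D (-0.89). The higher calls were thus no longer above the background under this offset, and COX8A (0.30), NDUFS8 (0.13), NDUFV1 (0.14) and ATP5B (0.41) were no longer called. COX4I1 (0.87), COX5A (1.27), COX6B1 (1.22), COX7B (1.48), UQCRFS1 (2.01) and NDUFA1 (1.51) were called under this offset too. The offset was fitted over all tested genes with a transcript. Among the 85 genes, Spearman's rho of the difference went from -0.09 to -0.44 with GC content and from -0.02 to 0.28 with length. Values under this offset are therefore not free of GC and length trends in these genes. With library sizes alone, 26 were higher (30.6% of the 85, against 27.1% of all tested genes). Lower were 3 (3.53%, against 30.6%). The higher calls were then close to the background as well.

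Next, the line comparison was repeated among the cells that had received the same inhibitor, which uses other libraries. With SR11302, 23 genes were called higher in A549 (background 29.9%) and 10 lower (background 26.6%), with a median of 0.18. With SP600125, 28 were higher (background 30%) and 3 lower (background 28.2%), with a median of 0.37. There the GC and length offset gave 23 and 8 (background 29.5 and 27.9%) and library sizes alone 22 and 8 (background 25.4 and 33.6%). With either inhibitor, 6 of 11 complex IV subunits and 5 of 8 assembly factors of complex I were higher in the main fit. UQCRFS1 differed by 1.83 ± 0.13 and 1.74 ± 0.13, COX6B1 by 1.33 ± 0.17 and 1.47 ± 0.17, COX5A by 1.20 ± 0.18 and 1.29 ± 0.18, and COX4I1 by 0.95 ± 0.15 and 1.14 ± 0.15. No core subunit of complex I was called in either, where edgeR gave an unadjusted p under 0.05 for 1 of 7 under SR11302 and 4 under SP600125 and DESeq2 called 0 and 0.

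Called higher in A549 in all 3 comparisons were 17 of the 85 genes (20%, against 19.8% of all tested genes). Called lower was 1, COX6B2 (1.18%, against 16.7%). The share called higher was thus close to the background, and the share called lower was below it. The 17 genes were 6 of the 11 complex IV subunits (COX4I1, COX5A, COX6B1, COX7B, COX7C and NDUFA4), 5 of 30 accessory subunits of complex I, 2 of its 8 assembly factors, UQCRFS1 and UQCRC2, COX7A2L and ATP5G3. NDUFA4 was just under the fold minimum with SR11302 without A549_SR11302 replicate 1 (0.50). Over all treatments, the A549 libraries of COX4I1 ranged from 247 to 389 CPM (median 319) and its B2B libraries from 108 to 193 CPM (median 154). For UQCRFS1 the ranges were 137 to 219.7 CPM (median 166) and 43.1 to 56.3 CPM (median 45.6), and for NDUFA1 97.4 to 136 CPM (median 112) and 30.8 to 65.5 CPM (median 49.6). In 23 genes the lowest A549 library was above the highest B2B library (27.1% of 85, against 20.1% of all tested genes). In 1 gene the highest A549 library was below the lowest B2B library (1.18%, against 17.9%). The SR11302 comparison rested on single libraries, since 16 genes were higher and 18 lower without A549_SR11302 replicate 1, 34 and 3 without its replicate 2, and 30 and 5 without B2B_SR11302 replicate 2.

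Of the 10 genes called lower in A549 under SR11302, 6 were accessory subunits of complex I. NDUFA7 was at 19.7 and 11.6 CPM in A549_SR11302 and 28.7 and 39.9 in B2B_SR11302 (-1.14 ± 0.23, adjusted p = 0.00065), and NDUFA13, also known as GRIM-19, at 74.7 and 51.1 against 90.6 and 128 (-0.80 ± 0.19). Of the accessory subunits 6 were lower and 7 higher there, whereas under SP600125 12 were higher and none lower, where edgeR gave an unadjusted p under 0.05 with a lower level for 0 of 30 and DESeq2 called 0 lower. Under SP600125 the largest differences in complex I were those of NDUFAF4, an early assembly factor (17.9 and 18.7 against 5.25 and 8.34 CPM, 1.44 ± 0.21), NDUFA1 (1.29 ± 0.16) and NDUFB6 (1.13 ± 0.14). COX6B2 reached -3.93 ± 0.49 there, at 0.447 and 0.620 against 11.2 and 5.17 CPM, and its 2 B2B libraries lay far apart.

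**Figure D2:**
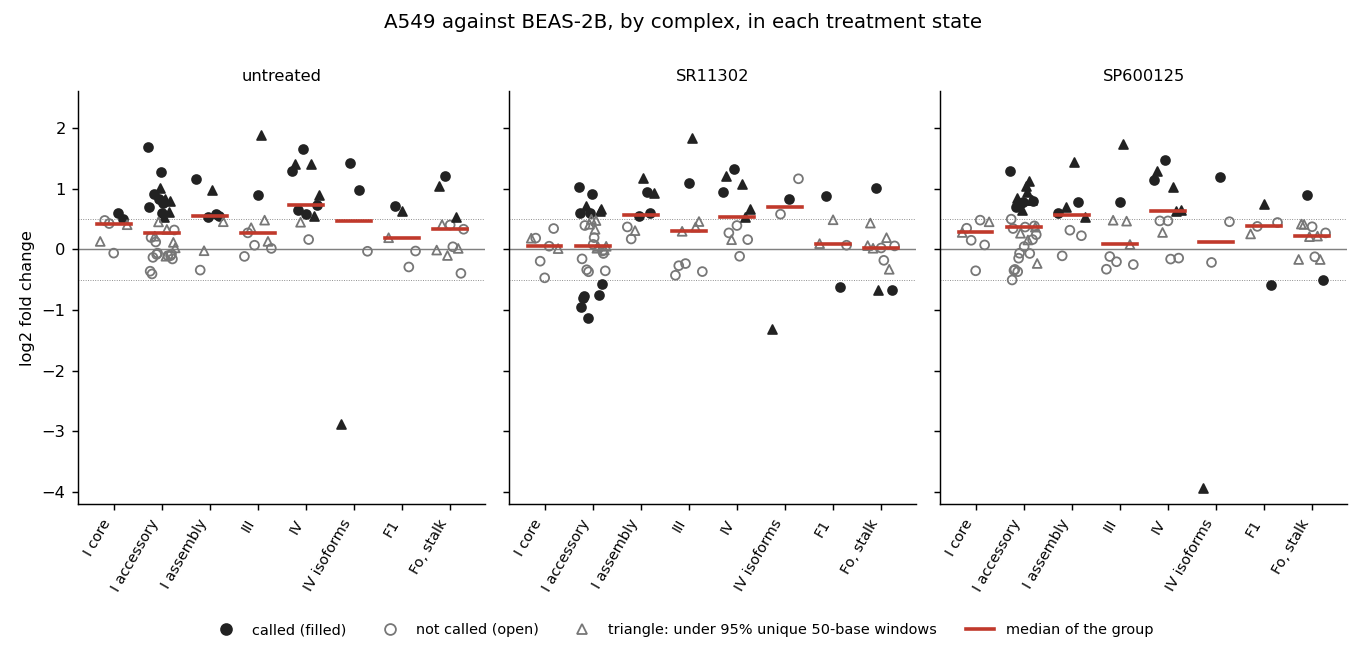
Log2 fold change of A549 over B2B for each of the 85 tested genes by role, without treatment, with SR11302 and with SP600125. Filled symbols were called, triangles have under 95% unique windows, red lines are group medians and dotted lines mark 0.5 in either direction. Complex IV lies mostly above 0 in all 3 panels (medians 0.72, 0.53 and 0.63), while accessory subunits of complex I reach further below 0 with SR11302.

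SR11302 was compared with no treatment in each line to see which of these mRNAs responded to the AP-1 inhibitor. In A549 no gene rose (background 14.8%) and 5 fell (background 13%), with a median of 0.03. At an unadjusted p under 0.05, edgeR gave 8 genes with a higher and 12 with a lower level, and DESeq2 called 0 higher and 5 lower. The 5 that fell were UQCRHL, UQCRH, NDUFV2, NDUFAF2 and COX7A1, and of these only COX7A1 has at least 95% unique windows. COX7A1 went from 3.17 and 3.56 to 0.631 and 0.795 CPM (-2.22 ± 0.30, adjusted p = 0.0001). Of the large subunits none was called: the differences were 0.23 ± 0.09 for NDUFS1, 0.30 ± 0.15 for COX4I1, 0.07 ± 0.14 for UQCRC1 and 0.33 ± 0.12 for ATP5B.

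In B2B, 14 genes rose with SR11302 (background 11.4%) and 6 fell (background 11.1%), and the median was 0.27. Accessory subunits of complex I and subunits of complex IV made up 11 of these rises. NDUFB2 went from 20.8 and 23.3 to 37 and 45.4 CPM (0.90 ± 0.21, adjusted p = 0.0065), NDUFA1 from 30.8 and 33.7 to 50.1 and 65.5 (0.84 ± 0.16, adjusted p = 0.0016), and COX8A, a small subunit of complex IV, from 69.9 and 80.1 to 124 and 151 (0.87 ± 0.19, adjusted p = 0.004). In each of these genes both treated libraries were above both untreated ones, and replicate 2 was the higher treated library. COX8A, NDUFA1 and COX6C were called whichever single library was left out, whereas NDUFB2 was not called without B2B_NT replicate 1 (0.82) or without B2B_SR11302 replicate 2 (0.75). UQCRQ (0.78 ± 0.17), NDUFB11 (0.77 ± 0.20), ATP5J2 (0.75 ± 0.19), NDUFA2 (0.70 ± 0.20), NDUFA7 (0.65 ± 0.23), COX4I1 (0.63 ± 0.15), COX6C (0.63 ± 0.12), NDUFA13 (0.57 ± 0.19), COX7A2 (0.55 ± 0.13), COX6B1 (0.53 ± 0.17) and ATP5O (0.51 ± 0.12) also rose. Of these, all except COX6C lost the call without B2B_SR11302 replicate 2, with values from 0.30 (NDUFA13) to 0.61 (ATP5J2). Without B2B_NT replicate 1 the call was lost for 9 of these 11 (all but COX6C and UQCRQ), and without B2B_NT replicate 2 for 5 (ATP5J2, NDUFA2, NDUFA7, NDUFA13 and COX6B1). By role these were 6 of 30 accessory subunits of complex I, 5 of 11 complex IV subunits, 1 of 9 in complex III and 2 of 11 Fo and stalk genes, with none among the core subunits of complex I and F1, where edgeR's unadjusted p was under 0.05 with a higher level in 3 of 7 and 1 of 5 and DESeq2 called 0 and 0. The 6 that fell were UQCRHL, UQCRH, NDUFAF2, NDUFAF4 (-0.56 ± 0.20), NDUFA5 (-0.58 ± 0.17) and COX7A1, the last from 1.29 and 1.22 to 0.411 and 0.563 CPM (-1.38 ± 0.36), and this call was lost without either B2B_NT replicate (-1.34 and -1.42) or without B2B_SR11302 replicate 1 (-1.15). NDUFAF4 and NDUFA5 were not called without B2B_SR11302 replicate 2 (-0.39 and -0.40), without B2B_NT replicate 1 (-0.67 and -0.51) or without B2B_NT replicate 2 (-0.44 and -0.64).

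The SR11302 counts depended on which library was used. In B2B the median of these genes was 0.18 without B2B_SR11302 replicate 2 and 0.34 without its replicate 1. Over all tested genes these medians were 0.01 and 0. Without B2B_SR11302 replicate 2 the rises in B2B numbered 3 instead of 14, without its replicate 1 they numbered 22, without B2B_NT replicate 1 they numbered 4 and without B2B_NT replicate 2 they numbered 10. The falls in B2B numbered 3 without either B2B_NT library. In A549 the falls numbered 20 without A549_SR11302 replicate 1, and 10 genes rose without its replicate 2. Within A549_SR11302, 76 of the 85 genes were lower in replicate 2 than in replicate 1 (median log2 ratio -0.41), and the 20 genes with at least 55% GC had a median of -0.70. Within B2B_SR11302, 70 of 85 were higher in replicate 2 (median 0.23; 0.38 for the GC-rich genes), while over all tested genes the medians were -0.01 and -0.01. With the GC and length offset the SR11302 counts were 14 higher and 4 lower in A549 (background 16.7 and 12.1%) and 22 and 4 in B2B (background 11.5 and 11.7%). Under this offset, rho with GC content across the 85 genes went from -0.02 to 0.43 in A549. Library sizes alone gave 5 and 5 in A549 (background 19.5 and 9.91%) and 24 and 4 in B2B (background 14.3 and 9.13%). The part of library GC bias in these counts was not tested.

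Whether the SR11302 effect differed between the lines was tested by the interaction, in which the B2B effect is subtracted from the A549 effect. No gene had a more positive effect in A549 (background 8.34%) and 3 had a more negative one (background 7.41%), with a median of -0.28 over the 85 genes. At an unadjusted p under 0.05, edgeR gave 3 more positive and 10 more negative genes, and DESeq2 called 0 and 4. The 3 were NDUFA7 (-1.05 ± 0.33), ATP5SL (-0.78 ± 0.23) and ATP5H, a peripheral stalk subunit (-0.58 ± 0.18). NDUFA7 was at 22.2 and 18.8 CPM in A549_NT, 19.7 and 11.6 in A549_SR11302, 19.3 and 24.1 in B2B_NT and 28.7 and 39.9 in B2B_SR11302. None of the 3 was called without A549_NT replicate 1, A549_SR11302 replicate 2, either B2B_NT replicate or B2B_SR11302 replicate 2, while without A549_SR11302 replicate 1 the count of more negative effects was 40. The median of these genes was -0.48 without A549_SR11302 replicate 1 and -0.04 without its replicate 2. Over all tested genes it was -0.003 and 0.04. The GC and length offset gave 2 more positive and 2 more negative effects (background 10.3 and 8.04%). Library sizes alone gave 1 and 3 (background 8.95 and 6.69%), and the replicate block 1 more negative effect.

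Next, SP600125 was compared with no treatment. In A549, 10 genes rose (background 23.9%) and 16 fell (background 25%), with a median of 0.05, and in B2B, 10 rose (background 21.2%) and 12 fell (background 22.6%), with a median of 0.12. In either line, fewer of these genes than of all tested genes were called in each direction, but with the GC and length offset described below the rises were 28.2% of the 85 genes in each line, against 23.1% of all tested genes in A549 and 21.9% in B2B. Without B2B_NT replicate 1 or without B2B_SP600125 replicate 1, the rises in B2B numbered 6. Of the genes that fell, 10 did so in both lines, which is 62.5% of those in A549 and 83.3% of those in B2B, and 5 rose in both, 50% and 50%. For all tested genes these shares were 52.5% and 58.1% for falls and 48.3% and 54.3% for rises.

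The falls shared by both lines were those of ATP5D, ATP5G1, ATP5G2, NDUFB7, NDUFS7, NDUFAF3, NDUFAF2, UQCRH, UQCRHL and COX7A1. ATP5D (chr19:1241746-1244825, plus strand) went from 55.6 and 44.1 to 13.3 and 15.6 CPM in A549 (-1.79 ± 0.23, adjusted p = 2.2e-05) and from 57.8 and 64.2 to 20 and 23.5 in B2B (-1.49 ± 0.22, adjusted p = 7.8e-05). NDUFB7, an intermembrane space subunit of complex I (chr19:14566078-14572066, minus strand), went from 47.9 and 36.3 to 18.2 and 15.7 CPM (-1.31 ± 0.24) and from 43.4 and 47 to 19.4 and 16.1 (-1.35 ± 0.23). In both genes every treated library lay below every untreated library of its line. NDUFS7 fell by 1.27 in A549 and by 0.98 in B2B on the log2 scale, and the assembly factor NDUFAF3 by 0.82 and 0.61. Of the c-ring genes, ATP5G1 went from 112 and 96.2 to 39.4 and 45.6 CPM in A549 (-1.29 ± 0.19) and from 49.4 and 52 to 31.5 and 32.2 in B2B (-0.67 ± 0.20), ATP5G2 had -0.79 ± 0.17 and -0.79 ± 0.17, and ATP5G3 fell in A549 (-0.54 ± 0.14) but was not called in B2B (-0.23 ± 0.14). In B2B the calls of NDUFS7 (-0.79 without B2B_SP600125 replicate 2), ATP5G1 (-0.69 without B2B_SP600125 replicate 1) and NDUFAF3 (-0.56 without B2B_NT replicate 2 and -0.54 without B2B_SP600125 replicate 2) were lost when 1 library was left out.

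The rises shared by both lines were those of NDUFA8, NDUFB1, COX6C, COX7A2 and NDUFA4L2. NDUFA8, another intermembrane space subunit of complex I, went from 31.6 and 27.1 to 50.4 and 57.4 CPM in A549 (0.88 ± 0.13, adjusted p = 8.3e-05) and from 28.7 and 32.5 to 57 and 55.8 in B2B (0.88 ± 0.13, adjusted p = 8.6e-05). COX7A2, the common form of subunit 7a, went from 86.4 and 76.9 to 120.0 and 129 CPM (0.61 ± 0.13) and from 71.2 and 74.8 to 139.6 and 138 (0.93 ± 0.13). In both genes every treated library was above every untreated library of its line. NDUFB1 had 0.66 ± 0.16 and 1.02 ± 0.16, and COX6C 0.67 ± 0.12 and 0.78 ± 0.12. NDUFC2 (17.5 and 14.1 to 30.7 and 38.7 CPM, 1.14 ± 0.18), NDUFS4 (0.91 ± 0.13), known from its mutations in Leigh syndrome, ATP5H (0.68 ± 0.12), NDUFB5 (0.61 ± 0.12) and NDUFA12 (0.51 ± 0.14) rose in A549, the last 2 not without A549_NT replicate 2 (0.48 and 0.43) and NDUFA12 also not without A549_SP600125 replicate 1 (0.48).

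Large responses were also seen for isoform genes at low levels. COX7A1 (chr19:36150922-36152449, minus strand) went from 3.17 and 3.56 to 0.0745 and 0.0689 CPM in A549 (-5.43 ± 0.51, adjusted p = 1.6e-06) and from 1.29 and 1.22 to 0.0520 and 0.122 in B2B (-3.80 ± 0.53, adjusted p = 5.1e-05), which rests on 2 reads in the treated A549 libraries together and 3 in the treated B2B libraries. The fitted fold at such counts depends on the prior count. As a ratio of summed counts, the treated level was 0.0213 of the untreated one in A549 (95% exact binomial interval 0.00255 to 0.0785) and 0.0670 in B2B (0.0134 to 0.206), where the intervals cover counting error only. NDUFA4L2 (chr12:57234903-57240715, minus strand) went the other way, from 0.389 and 0.637 to 2.46 and 3.10 CPM in A549 (2.42 ± 0.37, adjusted p = 9.3e-05) and from 0.479 and 0.570 to 2.39 and 1.64 in B2B (1.93 ± 0.36, adjusted p = 0.00051). For both genes the groups did not overlap in either line. Their ubiquitous counterparts were not called in the same direction: NDUFA4 had -0.13 ± 0.13 and 0.12 ± 0.13, and COX7A2 rose. COX6B2 was called in B2B (0.83 ± 0.33), but its treated libraries were at 11.2 and 5.17 CPM and the call was lost without replicate 1 of them (0.12), and also without either B2B_NT replicate (0.62 and 1.09).

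**Figure D3:**
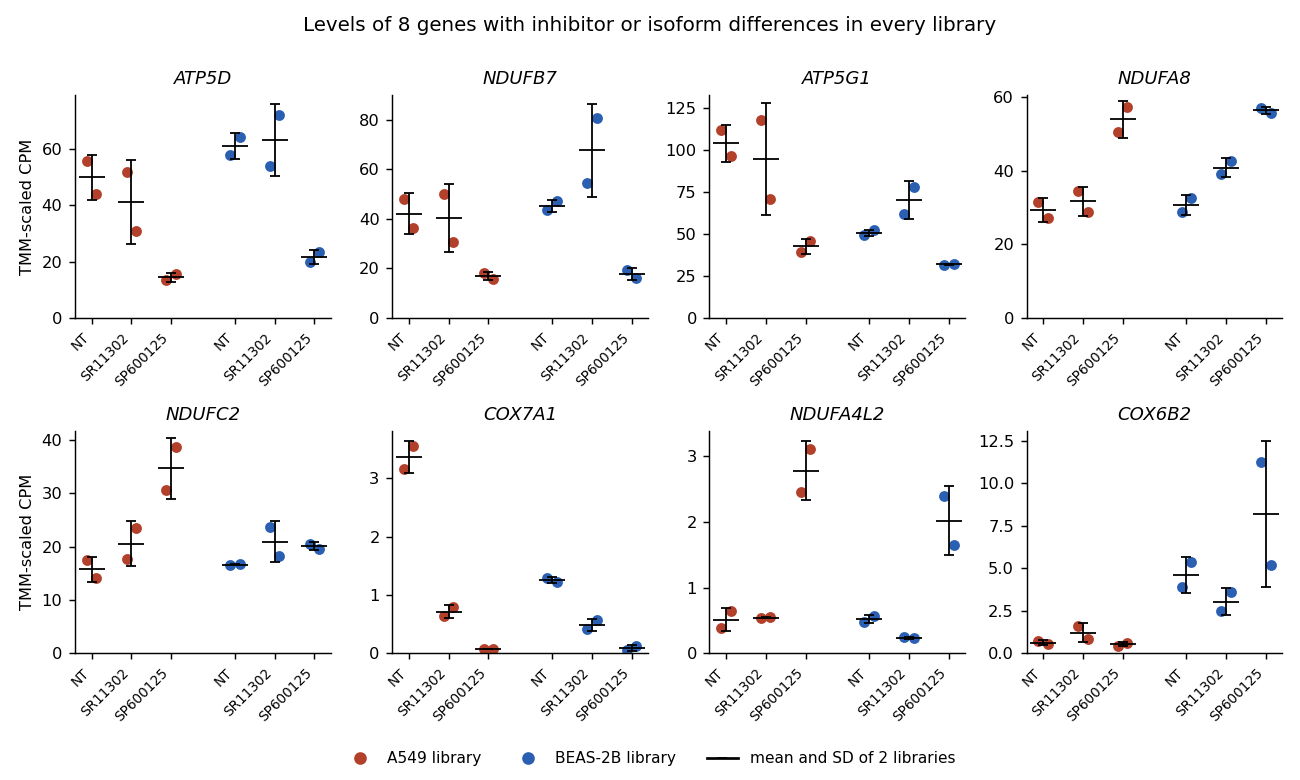
TMM-scaled CPM (linear axis from 0) of 8 genes in every library, by line and treatment. Points are single libraries, and the black bars are the mean and SD of the 2 libraries of a group. ATP5D, NDUFB7 and ATP5G1 are lowest with SP600125 in both lines, NDUFA8 and NDUFA4L2 are highest, and COX7A1 is near 0.

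Base composition moved with the SP600125 differences. Of the 20 tested genes with at least 55% GC, 1 rose and 9 fell in A549 (median -0.36), of the 33 between 45 and 55%, 3 rose and 4 fell (0.09), and of the 32 under 45%, 6 rose and 3 fell (0.16). In B2B the GC-rich genes had 3 rises and 6 falls (median -0.15). Calls by GC class were counted for the 85 genes only, so no background of the same class stands beside them. Across the 85 genes, Spearman's rho between GC content and the log2 fold change was -0.41 in A549 and -0.04 in B2B. Across the 51 of them with unique windows it was -0.56 and -0.28, against -0.42 and -0.14 across the 13147 tested genes with unique windows. The points share libraries and are no independent replicates. With the GC and length offset, 24 genes were higher and 11 lower in A549 (23.1 and 19.8% of all tested genes), and 24 and 8 in B2B (21.9 and 20.7%). Across the 85 genes, rho with GC content was then 0.36 in A549 and 0.22 in B2B. Their rho with length went from 0.07 to -0.51 in A549 and from -0.03 to -0.39 in B2B, so the offset left trends in these genes. In A549 ATP5D (-0.25), ATP5G2 (-0.19) and NDUFAF3 (-0.31) were then not called, and NDUFB7 (0.057), NDUFS7 (0.11), NDUFS8 (0.51, from -0.59 ± 0.20), NDUFA11 (0.45, from -0.66 ± 0.26) and COX8A (0.14) changed sign. ATP5G1 (-0.70), COX7A1 (-4.36), NDUFA4L2 (3.37), NDUFA8 (1.18), NDUFB1 (1.19), COX7A2 (1.03) and COX6C (0.62) were called in A549 in the same direction as before. In B2B, ATP5D (-0.53), COX7A1 (-3.04), NDUFA4L2 (2.49), NDUFA8 (1.05), NDUFB1 (1.65), COX7A2 (1.35) and COX6C (1.01) were, while NDUFB7 (-0.44), NDUFS7 (-0.10), ATP5G1 (-0.32), ATP5G2 (-0.44) and NDUFAF3 (-0.36) were not. With library sizes alone the counts were 10 and 13 in A549 (background 26.5 and 22.8%) and 20 and 10 in B2B (background 27.1 and 18.8%). Whether the GC trend comes from the library preparation or from the cells was not tested.

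**Figure D4:**
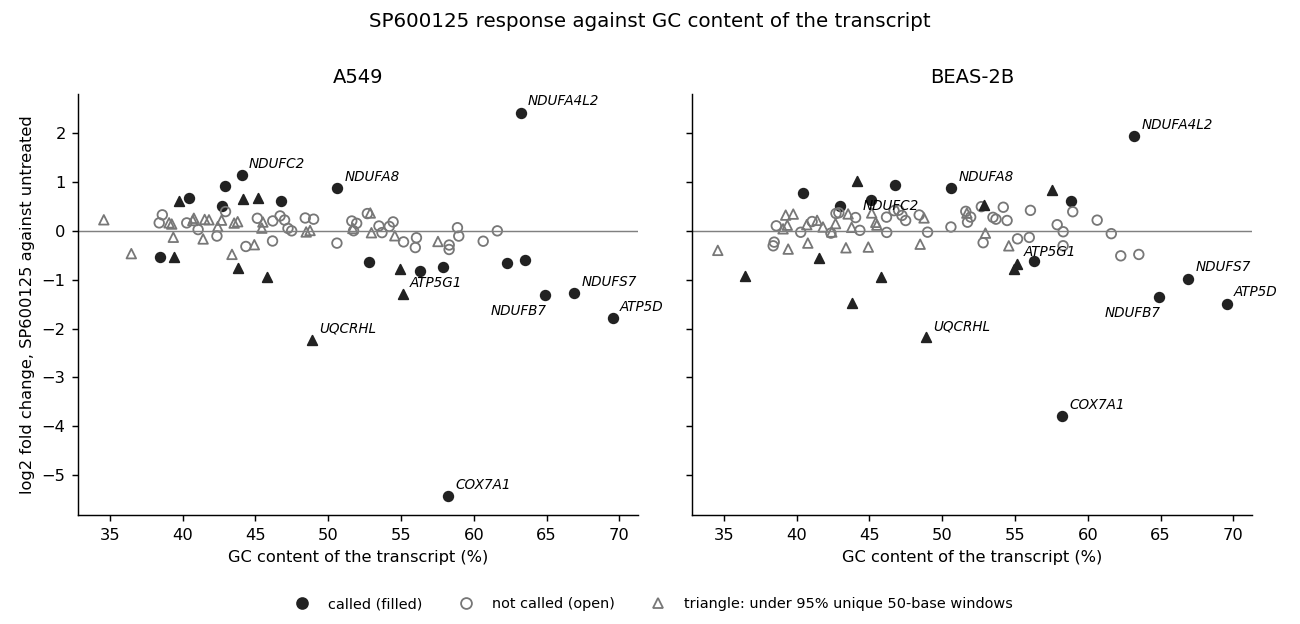
Log2 fold change of SP600125 over no treatment against the GC content of the canonical transcript for the 85 tested genes, in A549 and in B2B. Filled symbols were called and triangles have under 95% unique windows. In A549 most called genes above 55% GC lie below 0, with NDUFA4L2 as the exception. In B2B the slope over the 85 genes is slight (rho -0.04), while rho is -0.28 over the 51 genes with unique windows.

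A second property that moved with every comparison of an inhibitor with no treatment was the presence of copies in the genome. Among all tested genes, the 538 with 50 to 80% unique windows had median differences of -0.46 and -0.50 with SR11302 and -0.54 and -0.60 with SP600125 in A549 and B2B, and the 324 with under 50% had -0.93, -0.97, -1.03 and -1.0, against 0.07, 0.06, 0.07 and 0.06 for the 13147 genes with at least 95%. Of the collection, 5 genes fall in the range of 50 to 80%, namely UQCRFS1, UQCRH, UQCRHL, NDUFV2 and NDUFAF2, and these had negative values in all 4 comparisons, with medians of -0.74, -0.67, -0.75 and -0.94. COX6A1, the only tested member under 50% (39.5%), did not share this pattern, with -0.28 ± 0.15 and 0.0 ± 0.15 for SR11302 and 0.37 ± 0.15 and 0.53 ± 0.15 for SP600125, of which the last was called, though not without B2B_NT replicate 1 (0.46) or B2B_SP600125 replicate 1 (0.47). UQCRH, the acidic hinge protein of complex III, was at 137 and 125 CPM in A549_NT, 78.7 and 73.3 in A549_SR11302 and 63.2 and 71.9 in A549_SP600125, with -0.79 ± 0.11 and -0.95 ± 0.11, and in B2B it had -0.67 ± 0.11 and -0.94 ± 0.11. UQCRHL, an intronless copy of UQCRH, went from 4.0 and 4.09 CPM in A549_NT to 0.388 and 0.586 with SR11302 and 0.671 and 1.03 with SP600125, with -3.02 ± 0.31 and -2.23 ± 0.31. NDUFAF2 was called lower in all 4, with -0.67 ± 0.16 and -1.0 ± 0.16 for SR11302 and -0.75 ± 0.16 and -1.47 ± 0.17 for SP600125. The 4 comparisons share the untreated libraries of their line, so these falls are not independent of one another. The untreated libraries also had the larger share of reads outside genes, and the part of read placement in these falls was not tested. Counting only genes with unique windows, SR11302 gave 0 rises and 1 fall in A549 and 13 and 1 in B2B, and SP600125 gave 7 and 10 in A549 and 7 and 5 in B2B, of 51 genes. The share called among the 13147 tested genes with unique windows is not given beside these counts. They are therefore not read against a background. The medians of the 51 genes were 0.08 and 0.41 with SR11302 and 0.03 and 0.21 with SP600125, in A549 and B2B. Those of the 13147 genes were the 0.07, 0.06, 0.07 and 0.06 given above.

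The SP600125 effect was called different between the lines for 5 genes, 4 with a more positive effect in A549 (background 12.1%) and 1 with a more negative one (background 13.1%). NDUFC2 rose in A549 and was at 16.6 and 16.7 and, with SP600125, 20.6 and 19.6 CPM in B2B (interaction 0.87 ± 0.26). NDUFB6 was at 56.9 and 50.5 and then 58.6 and 67.7 CPM in A549 but fell in B2B from 38.7 and 46.9 to 26.2 and 31.7 (interaction 0.80 ± 0.19). COX8A fell in A549 from 133 and 115 to 70.3 and 77.8 CPM and was at 69.9 and 80.1 and then 81.8 and 82 in B2B (interaction -0.87 ± 0.27). NDUFAF2 (0.72 ± 0.23) and NDUFS4 (0.54 ± 0.18) completed the list. Leaving out single libraries left 0 to 3 more positive and 0 or 1 more negative effects. No more positive effect was called without B2B_NT replicate 2, where NDUFB6 was at 0.66, and NDUFB6 was called whichever other library was left out. The fall of NDUFB6 in B2B was itself lost without B2B_NT replicate 2 (-0.42) or B2B_SP600125 replicate 1 (-0.47).

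The inhibitors differ in structure, target and dose, 10 µM against 50 µM, and their levels were set side by side within each line with the untreated libraries left aside. In A549, 9 genes were higher with SP600125 than with SR11302 (background 16.6%) and 12 lower (background 20.5%), and in B2B, 6 were higher (background 15.6%) and 17 lower (background 18.1%). NDUFB7 was at 54.4 and 80.8 CPM in B2B_SR11302 and 19.4 and 16.1 in B2B_SP600125 (-1.93 ± 0.24, adjusted p = 3e-05), and ATP5D at 54 and 72.1 against 20 and 23.5 (-1.54 ± 0.22). In A549 these differences were -1.25 ± 0.24 and -1.51 ± 0.23, and COX7A1 (-3.21 ± 0.66) was lower and NDUFA4L2 (2.36 ± 0.36) higher with SP600125. Of the 20 GC-rich genes, 12 were lower and 2 higher with SP600125 in B2B (median -0.68) and 8 lower and 1 higher in A549 (median -0.38). A GC trend was also present across the 13147 tested genes with unique windows, where rho was -0.25 in B2B and -0.36 in A549. Across the 51 genes of the collection with unique windows it was -0.48 and -0.42. With the GC and length offset the B2B counts over the whole collection were 7 and 9 (background 15.4 and 15.6%). Without B2B_SR11302 replicate 2 the B2B falls numbered 8, without B2B_SP600125 replicate 1 the B2B rises numbered 1 and without B2B_SR11302 replicate 1 they numbered 3, and in A549 the counts were 18 higher and 8 lower without A549_SR11302 replicate 1 and 7 higher and 22 lower without its replicate 2.

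**Figure D5:**
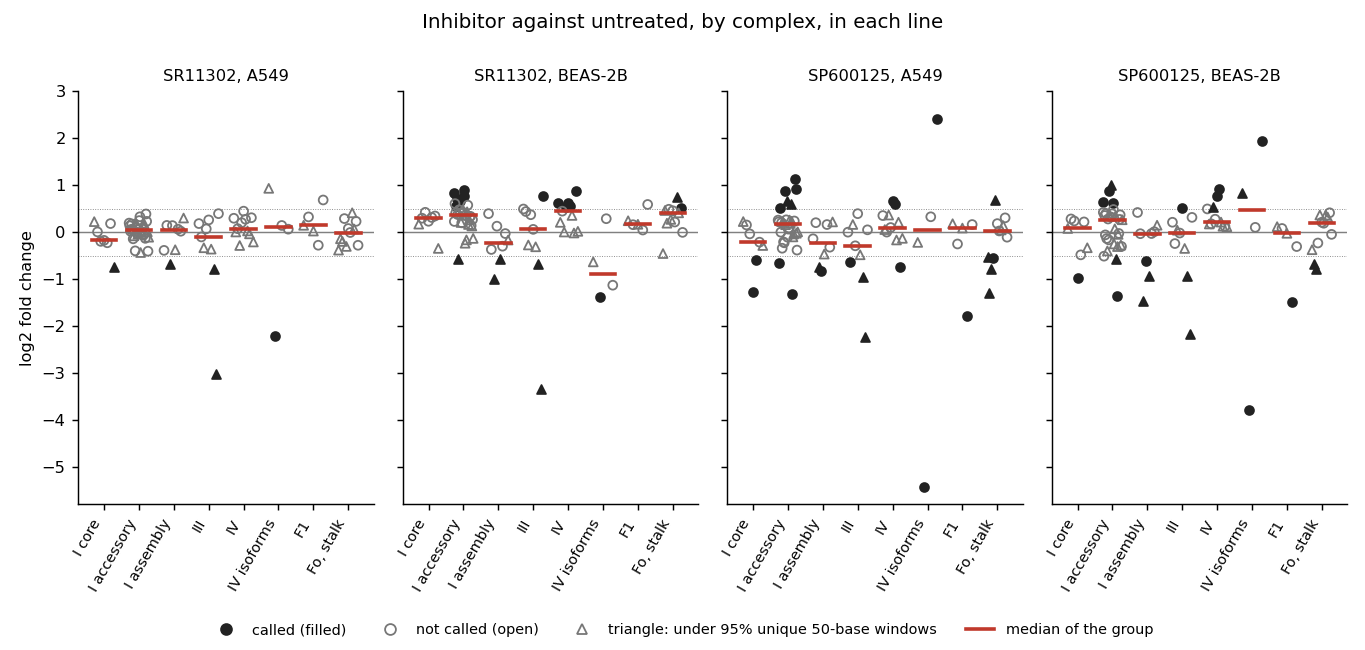
Log2 fold change of each inhibitor over no treatment for the 85 tested genes by role, in each line. Filled symbols were called, triangles have under 95% unique windows, red lines are group medians and dotted lines mark 0.5 in either direction. The medians of the groups lie near 0 in most panels, filled symbols above 0.5 with SR11302 in B2B are 6 accessory subunits of complex I, 5 complex IV subunits, UQCRQ, ATP5J2 and ATP5O, and the lowest points are COX7A1 with SP600125 and UQCRHL with SR11302.

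The other genes of the pathway were read from lists of known members. Their values come from the main fit only. They were not examined under the GC and length offset, with library sizes alone or with libraries left out. Between the untreated lines, where 30.4% of all tested genes were higher in A549 and 26.5% lower, 7 of 12 genes of cytochrome c and of the carriers and channels of the mitochondrial membranes were higher in A549 (median 0.80), with CYCS, cytochrome c itself, at 436 and 435 against 172 and 173 CPM (1.34 ± 0.10). Of 38 tested assembly factors of complexes I, III, IV and V, 13 were higher, with LRPPRC, which stabilizes mitochondrial mRNAs, at 518 and 571 against 235 and 232 CPM (1.22 ± 0.12). Of 18 citric acid cycle genes 4 were higher, led by MDH2 (1.30 ± 0.14), and of 8 complex II genes 3 were higher and 1 lower. Among 18 regulators of mitochondrial transcription, 9 were higher and 2 lower. PPARGC1B, a PGC-1 coactivator, was at 34.6 and 36.4 CPM in A549_NT and 2.44 and 2.12 in B2B_NT (3.96 ± 0.15, adjusted p = 4.6e-11), and the receptor ESRRA at 75.2 and 68.7 against 20.1 and 22 (1.77 ± 0.12, adjusted p = 1.7e-08).

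Of the 18 regulators, 2 rose and 7 fell with SP600125 in A549, and 1 rose and 6 fell in B2B, where the background was 23.9 and 25% in A549 and 21.2 and 22.6% in B2B. ESRRA was at 13.4 and 13 CPM in A549_SP600125 and 7.43 and 8.15 in B2B_SP600125, a fall from the untreated cells of 2.44 and 1.44 on the log2 scale. PPARGC1B fell in A549 to 7.90 and 8.62 CPM (-2.10 ± 0.14), and PPRC1, also of the PGC-1 family, to 48.7 and 51.1 (-1.98 ± 0.17). Whether the falls of these regulators are kept under the GC and length offset was not tested. PPARGC1A, by contrast, was at 0.575 and 0.611 CPM in B2B_NT and 3.53 and 2.98 in B2B_SP600125 (2.45 ± 0.41). In A549 it was at 3.0 and 3.82 CPM without treatment and 7.23 and 5.72 with SP600125. With SR11302 it fell in A549 to 0.291 and 1.17 CPM (-2.17 ± 0.39). CYCS fell with SP600125 in both lines (-1.54 ± 0.10 and -1.12 ± 0.10; 84.9% unique windows), while UCP2, an inner membrane carrier, rose with SR11302 in both (1.52 ± 0.17 and 1.48 ± 0.17). COA5, a complex IV assembly factor, rose with SP600125 from 14.3 and 15.6 to 46 and 50.9 CPM in A549 and from 14.4 and 13.9 to 32.5 and 31.1 in B2B (1.70 ± 0.13 and 1.17 ± 0.13). SDHAF4, a complex II assembly factor, rose with SP600125 by 1.45 ± 0.17 and 1.89 ± 0.22.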

How the data were processed

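RNA of 12 libraries (6 groups of 2) was read as gene counts. Per the submitters' processing notes, reads were aligned to hg38 with STAR 2.7.10a and counted with HTSeq 1.99.2; the counts deposited by the authors are whole reads per gene symbol, not normalized. For the strand setting, read length and annotation version: not given in the sources used here. Samples were grouped by the labels.

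From the counts, 16373 of 26485 genes passed edgeR's filterByExpr and were tested with edgeR 4.0.16 (R 4.3.3; TMM, quasi-likelihood test, 1 model over all 12 libraries and 6 groups, 6 residual degrees of freedom, no block). The script was tested on simulated data. Rows for reads outside genes, ambiguous or not unique stayed out of library sizes. Depth was 13969766 to 24917854 reads in genes. The labels give no shared batch for replicate numbers. Transcript length, GC content and unique windows came from GENCODE 44 canonical transcripts, which matched all 90 genes, 18 of them through older symbols.

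Genes were named where called with a mean of at least 10 CPM and among the 10 largest differences in a direction, at the extremes of a role, or on a list of core subunits and isoforms. COX5B, COX6C, COX7C, UQCRC2, NDUFB1, NDUFA3 and ATP5G2 in the line comparison, NDUFA13 and ATP5O in B2B with SR11302 and ATP5G3 with SP600125 fell outside this rule and were chosen after their values were seen. The members and lists were chosen with earlier results of these data known. Alternatives were DESeq2 1.42.0, other size factors, a GC and length offset, no filter, no fold minimum, the groups of a comparison only, a replicate block, genes with unique windows only and each library left out.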

Additional observations from a re-analysis of the deposited data

Results flagged for a closer look

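For 8 genes the effect of an inhibitor was called different between A549 and B2B by the interaction in edgeR's quasi-likelihood test, on the log2 scale, with the B2B effect subtracted from the A549 effect. With SR11302 these were NDUFA7 (-1.05, adjusted p = 0.043), ATP5SL (-0.78, adjusted p = 0.031) and ATP5H (-0.58, adjusted p = 0.039). With SP600125 they were COX8A (-0.87, adjusted p = 0.03), NDUFAF2 (0.72, adjusted p = 0.035), NDUFB6 (0.80, adjusted p = 0.0082), NDUFC2 (0.87, adjusted p = 0.023) and NDUFS4 (0.54, adjusted p = 0.036). NDUFAF2 has 56.3% unique windows, and 18.6% of the exon bases of NDUFC2 lie within a read-through gene. With each of the 8 libraries of an interaction left out in turn, the call was lost 8 times for NDUFS4, 7 times for NDUFAF2, 6 times for NDUFA7, ATP5H, COX8A and NDUFC2, 5 times for ATP5SL and 1 time for NDUFB6.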

How the results depend on the processing

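Counts are higher and lower calls unless said. Percentages in brackets are shares of all tested genes under the same setting. With the GC and length offset the counts were 24 and 9 between the untreated lines (30.1 and 28%). With SR11302, 14 were higher in A549 (16.7%) and 22 in B2B (11.5%). With SP600125, 24 were higher in each line (23.1% in A549, 21.9% in B2B). There were 2 more positive SR11302 effects in A549 (10.3%) and 9 lower with SP600125 than with SR11302 in B2B (15.6%). Between the SP600125 groups 8 were lower in A549 (27.9%). NDUFS8 (0.51), NDUFA11 (0.45), COX8A (0.14), NDUFS7 (0.11) and NDUFB7 (0.057) changed sign in A549 with SP600125, all on GC-rich transcripts. The offset left GC and length trends in the 85 genes, as given above. Library sizes alone gave 26 higher (27.1%) and 3 lower (30.6%) between untreated lines. With SR11302 they gave 5 higher in A549 (19.5%) and 24 in B2B (14.3%). They gave 20 higher in B2B with SP600125 (27.1%), 1 more positive SR11302 effect (8.95%) and 8 lower between the SP600125 groups (33.6%). The median of all genes moved to 0.14 (A549 with SR11302), 0.15 (B2B with SP600125) and -0.16 (SP600125 groups). With no fold minimum there were 2 lower between untreated lines, 1 and 9 in A549 and 22 higher in B2B with SR11302, 19 higher in B2B with SP600125 and 12 higher between the inhibitors in B2B. Fits of the compared groups only gave 0 more negative SR11302 and 4 more negative SP600125 effects, and no filter on low counts 1 and 13 for SR11302 and 4 more negative for SP600125. Of the 51 genes with unique windows, 23 and 0 were called between untreated lines, 1 lower in either line with SR11302, 10 lower in A549 and 5 in B2B with SP600125, 2 more positive SP600125 effects, 4 higher in A549 and 1 in B2B between the inhibitors, and 13 and 12 higher between the SR11302 and SP600125 groups. These smaller counts follow from fewer genes, and no share of all tested genes with unique windows is set beside them. The counts with no fold minimum, of the compared groups only and with no filter also stand without a share of all genes. None of these counts is read against a background. The other causes were not tested.

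Leaving out single libraries gave 27 to 43 and 1 to 4 between untreated lines, 0 to 10 and 5 to 20 in A549 and 3 to 22 and 3 to 6 in B2B with SR11302, 8 to 11 and 11 to 17 in A549 and 6 to 10 and 10 to 12 in B2B with SP600125, 0 to 1 and 0 to 40 for SR11302 by line, 0 to 3 and 0 to 1 for SP600125 by line, 7 to 18 and 8 to 22 in A549 and 1 to 6 and 8 to 22 in B2B between the inhibitors, 16 to 34 and 3 to 18 between the SR11302 groups and 26 to 31 and 1 to 2 between the SP600125 groups. A lone library was assumed to vary like the others. No share of all tested genes stands beside these ranges, so they do not show whether the collection moved apart from the other genes.

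The labels do not say what a shared replicate number means. Deviations of same-numbered libraries correlated at -0.691 (A549_SR11302 with B2B_SR11302) to 0.628 (A549_NT with A549_SR11302). Whether libraries of different groups shared a batch was not tested. With the replicate block, 1 more negative SR11302 effect was called, and the counts were 37 and 1 between untreated lines, 12 and 5 in B2B with SR11302, 10 and 15 in A549 and 9 and 12 in B2B with SP600125. A crossed block, chosen after seeing the data, gave 37 and 1 between untreated lines, 10 and 16 in A549 with SP600125, 9 and 11 and 6 and 17 between the inhibitors in A549 and B2B, and 23 and 11 between the SR11302 groups. Of 4806 values of single genes under alternatives, 4440 stayed on their side of the threshold, 242 lost the call, 119 gained it and 5 changed sign. The sign was compared only where the main or the alternative fit called the gene. Sign changes of values called in neither are counted among the 4440. COX7A1 with SP600125 rests on 2 and 3 reads, which limits its precision.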
